A study of Mus musculus with 24 samples.

Results

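The data describe how the transcriptome of the MOVAS line of mouse aortic smooth muscle differed between cells given recombinant human CTHRC1 (rhCTHRC1) and cells given vehicle when both were also treated with an ADAM9 inhibitor (ADAM9i). The comparison used 6 of the 24 libraries of the series, 3 with ADAM9i and rhCTHRC1 and 3 with ADAM9i and vehicle, selected by their labels, and covered all genes measured. Both groups carry the WT genotype, so the inhibitor was shared and rhCTHRC1 was what differed between them. The other libraries came from WT cells without inhibitor, from Rosa26-KO cells and from Adam9-KO cells, again with 3 libraries each for rhCTHRC1 and vehicle. The labels used here give no inhibitor name, no dose and no time of treatment. They do not say whether the 3 libraries of a group came from separate cultures. The p-values therefore measure the spread between the libraries fitted, which may be technical.

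CTHRC1, collagen triple helix repeat containing 1, is a secreted glycoprotein made by activated fibroblasts and by smooth muscle cells of injured arteries, and it is known for promoting cell migration and for binding to Wnt and Frizzled proteins. ADAM9 is a membrane-anchored metalloprotease with a disintegrin domain that cuts proteins at the cell surface. Aortic smooth muscle cells can move between a contractile state, rich in smooth muscle actin and actin-binding proteins, and a modulated state with more matrix remodelling, osteopontin and inflammatory gene expression. MOVAS is an immortalised line grown in culture, so it stands for smooth muscle cells that are already dividing.

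Among the genes called changed were members of 3 groups with well-known promoter elements, and 1 promoter from each is shown to make these elements visible. Sequences are the 250 bases before the RefSeq gene start in GRCm38.p6, written 5′ to 3′ on the gene's strand, with matches to the motif of the gene's own group in capitals.
Hspa5, chr2:34771840-34772089, plus strand: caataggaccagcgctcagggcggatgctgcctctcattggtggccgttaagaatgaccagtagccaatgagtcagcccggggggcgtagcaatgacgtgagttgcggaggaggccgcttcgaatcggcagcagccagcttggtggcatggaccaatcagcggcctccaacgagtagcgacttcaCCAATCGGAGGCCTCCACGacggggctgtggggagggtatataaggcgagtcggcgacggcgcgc
Bst2, chr8:71537473-71537722, minus strand: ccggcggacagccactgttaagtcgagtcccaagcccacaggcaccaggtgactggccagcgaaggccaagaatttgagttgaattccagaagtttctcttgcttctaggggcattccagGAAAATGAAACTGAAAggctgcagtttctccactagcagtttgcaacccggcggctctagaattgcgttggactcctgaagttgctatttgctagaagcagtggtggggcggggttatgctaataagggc
Ankrd1, chr19:36119845-36120094, minus strand: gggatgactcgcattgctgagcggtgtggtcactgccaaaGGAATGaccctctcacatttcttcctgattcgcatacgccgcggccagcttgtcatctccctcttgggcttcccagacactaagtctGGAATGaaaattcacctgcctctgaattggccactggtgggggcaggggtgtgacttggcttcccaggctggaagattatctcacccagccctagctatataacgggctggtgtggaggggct
In Hspa5 the capitals mark an ER stress response element, searched on both strands as CCAAT, any 9 bases and CCACG, whose first base lies 65 bases before the start. In Bst2 they mark 2 overlapping matches to the interferon-stimulated response element, searched as GAAA, any 2 bases and GAAA, which begin 130 and 124 bases before the start. In Ankrd1 they mark 2 matches to GGAATG, the core bound by TEAD factors, again searched on both strands, 210 and 123 bases before the start. Over all 32851 promoter windows of the table, 0.113% held the ER stress element, 2.98% the interferon element and 12.6% the TEAD core. Of the called genes with a window, the ER stress element was held by 2 of 6 ER chaperone genes, the interferon element by 3 of 6 interferon genes and the TEAD core by 4 of 4 YAP target genes. A match describes the letters in the window and is not evidence that a factor binds there. The lists were built from known target genes, and no share was taken for their members that were not called. The shares therefore do not set the called members apart from the rest of their lists.

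The libraries held 62108170 to 65833125 counts with rhCTHRC1 and 61608717 to 63368380 with vehicle. Adam9, the gene whose product the inhibitor targets, had 197, 221 and 198 CPM (counts scaled to library size) with rhCTHRC1, against 159, 162 and 171 CPM with vehicle. All 3 rhCTHRC1 libraries lay above all 3 vehicle libraries, with a log2 change of 0.32 ± 0.12 (SE) and an adjusted p of 0.228, and of 0.00298 when the 6 ADAM9i libraries were fitted alone. An inhibitor acts on the protein, so the level of the mRNA is no check of the labels. Cthrc1, the cells' own copy of the gene, had 0 counts in all 6 libraries, which allows up to 0.049 CPM per library by counting error alone. The recombinant protein is human and leaves no mouse transcript. Of 24 contractile smooth muscle genes, 20 averaged above 1 CPM in each group. Acta2 was the abundant smooth muscle actin, whereas Myh11, the myosin heavy chain of mature smooth muscle, had 0 to 0.245 CPM with rhCTHRC1 and 0.082 to 0.359 CPM with vehicle. Fibroblast markers were well expressed, with a summed level of 704 to 714 CPM with rhCTHRC1 and 716 to 775 CPM with vehicle, carried by 7 and 6 of 15 genes above 1 CPM. Endothelial markers summed to 41.5 to 42.7 CPM with rhCTHRC1 and 31.7 to 40.7 CPM with vehicle, with 4 of 12 genes above 1 CPM in each group. Of 7 tested, 1, Flt1, was called higher and 0 lower, beside 2.66% and 1.32% of all genes, and 3 had a positive value. Epithelial markers summed to 6.63 to 8.19 CPM with rhCTHRC1 and 3.73 to 9.14 CPM with vehicle, and adipocyte and chondrocyte markers to 122 to 125 CPM with rhCTHRC1 and 122 to 126 CPM with vehicle. The part of these markers in the results was not tested. Fewer cells of a type and less RNA per cell cannot be told apart in bulk samples.

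Under the inhibitor, rhCTHRC1 was followed by many small changes. Of 18816 genes tested with edgeR's quasi-likelihood test, 749 or 3.98% passed an adjusted p of 0.05 (Benjamini-Hochberg over all genes), of which 500 or 2.66% were higher and 249 or 1.32% lower. In the same test 2941 genes had an unadjusted p under 0.05. The fit held 12 libraries, those of ADAM9i and of WT, so the filter, the scaling and the estimate of spread also drew on WT. The median size of the called changes was 0.23 on the log2 scale, and 398 of the higher and 171 of the lower genes moved by less than 1.25-fold. At least a 2-fold change was seen for 34 genes or 0.181%, 14 higher and 20 lower, and 10 of these had a group at 0 counts. Ccl5 was the 1 gene of them with a mean of at least 5 CPM in either group. Libraries of the groups did not overlap for 500 of 500 higher and 246 of 249 lower genes, beside 10.9% of all genes tested that lay wholly above, 9.49% wholly below and 20.4% either way. Each of the 6 fits that left out 1 library had fewer libraries and gave fewer calls, 397 to 638. The lowest counts were 453 without vehicle library 2, 423 without vehicle library 3, 423 without rhCTHRC1 library 1 and 397 without rhCTHRC1 library 3. With library size as the sole scaling, 419 genes were called higher and 313 lower.

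**Figure D1:**
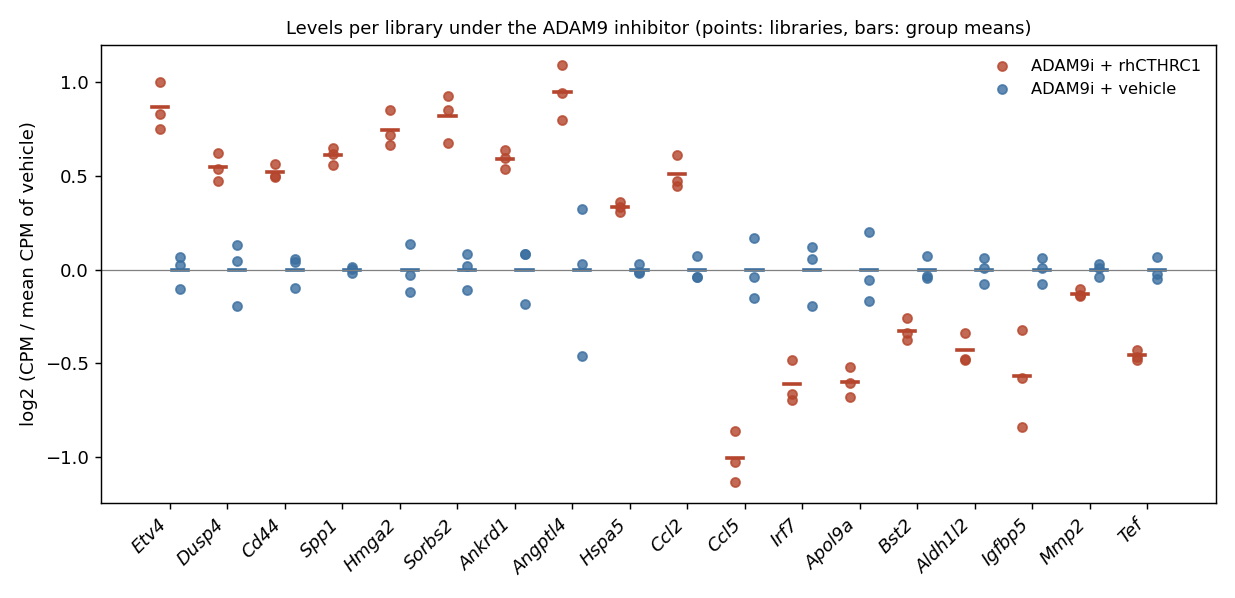
CPM of 18 genes in each library, as the log2 ratio to the mean of the vehicle libraries, with the ADAM9i + rhCTHRC1 libraries in red on the left of each gene and the ADAM9i + vehicle libraries in blue on the right. The rhCTHRC1 libraries of Etv4, Hmga2 and Spp1 sit above all vehicle libraries, and those of Ccl5, Irf7 and Aldh1l2 below them.

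The ERK pathway carries growth factor signals to the nucleus, and its target genes include phosphatases and ETV factors that feed back on it. Of 20 such genes tested, 6 rose and none fell, beside 2.66% of all genes that rose and 1.32% that fell. These shares also stand beside the counts of every other list in this response. In the ERK list 17 had a positive value, with a median log2 change of 0.24 beside -0.002 over all genes. Etv4, an ETS transcription factor, had 31.5, 29.8 and 35.5 CPM with rhCTHRC1, against 18.6, 18 and 16.5 CPM with vehicle. Its log2 change was 0.87 ± 0.08 (SE, adjusted p = 9.44e-06), and the groups stood well apart. Dusp4, a nuclear phosphatase of MAP kinases, had 63.6, 57.2 and 59.8 CPM with rhCTHRC1, against 45.2, 42.6 and 36 CPM with vehicle (log2 change 0.55 ± 0.07 SE, adjusted p = 0.00015). Dusp6, the cytoplasmic ERK phosphatase, rose by 0.42 ± 0.09 (SE) and Dusp5 by 0.52 ± 0.12 (SE), but Dusp6 had an adjusted p of up to 0.0725 with 1 library left out, and Dusp5 had an adjusted p of 0.122 in the ADAM9i libraries alone. Epha2 and Errfi1 also passed, and 2 members passed without vehicle library 3 or without rhCTHRC1 library 1.

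Upstream of ERK, 2 of 13 EGFR ligands and receptors rose, namely Nrg1 and Hbegf, which were named after their values were seen. Nrg1, neuregulin, averaged 45.7 ± 2.41 CPM with rhCTHRC1 and 35.8 ± 1.39 CPM with vehicle (SD, n = 3 each), and Hbegf, a ligand released from the membrane by metalloproteases, averaged 17.4 ± 1.81 and 12.8 ± 1.52 CPM in the same order. Of 10 ADAM family genes tested, 0 passed in edgeR and 0 in DESeq2, while 1 passed in limma on FPKM and 3 had an unadjusted edgeR p under 0.05, each with a positive value. Of 24 immediate early factors 1, Ier2, rose, beside 2.66% of all genes. The list had 21 positive values and a median log2 change of 0.17. At an unadjusted edgeR p under 0.05, 9 members were higher and 0 lower. When all 24 libraries were fitted, 4 were called higher and 0 lower. Fos, the classical immediate early gene, varied widely, with 34.8, 21.4 and 16.6 CPM with rhCTHRC1, against 13.7, 8.22 and 15.7 CPM with vehicle.

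Cd44, Spp1, Hmga2 and Sorbs2 also rose, with no overlap between groups, as held for all 500 genes called higher. Cd44, the hyaluronan receptor, had 190, 190 and 199 CPM with rhCTHRC1, against 138, 140 and 126 CPM with vehicle (log2 change 0.52 ± 0.05 SE, adjusted p = 3.95e-06). Spp1, which encodes osteopontin, had 380, 365 and 389 CPM with rhCTHRC1, against 244, 250 and 248 CPM with vehicle (log2 change 0.61 ± 0.05 SE, adjusted p = 1.73e-05). In both genes the spread within a group was far smaller than the gap between groups. They were the 2 of 19 modulated smooth muscle genes that rose, and 1, Dcn, fell. Hmga2, a chromatin protein of proliferating mesenchymal cells, had 117, 113 and 128 CPM with rhCTHRC1, against 78.1, 65.6 and 69.8 CPM with vehicle (log2 change 0.75 ± 0.07 SE, adjusted p = 8.72e-06). Sorbs2, an adaptor of the actin cytoskeleton, had 45.9, 51.9 and 54.5 CPM with rhCTHRC1, against 29.1, 26.7 and 30.4 CPM with vehicle (log2 change 0.82 ± 0.08 SE, adjusted p = 1.73e-05).

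YAP and TAZ are coactivators that work with TEAD factors and respond to cell shape and tension. Of 20 YAP target genes, 5 rose and none fell, beside 2.66% of all genes that rose and 1.32% that fell. The list had 15 positive values and a median log2 change of 0.16. Ankrd1, the ankyrin repeat protein whose promoter is printed above, had 195, 187 and 201 CPM with rhCTHRC1, against 137, 137 and 114 CPM with vehicle. Its log2 change of 0.59 ± 0.06 (SE, adjusted p = 9.25e-05) came with no overlap between groups. Ccn2, a matricellular growth factor, had 204, 186 and 207 CPM with rhCTHRC1, against 135, 145 and 97.4 CPM with vehicle (log2 change 0.66 ± 0.14 SE, adjusted p = 0.0334). That call rested on the wider fit, since the adjusted p was 0.186 with the 6 ADAM9i libraries alone. Axl, a receptor kinase, rose by 0.19 ± 0.02 (SE), Amotl2 by 0.16 ± 0.04 (SE, adjusted p = 0.0327, and 0.26 when all 24 libraries were fitted), and Ajuba was the fifth member called. The count of higher members was 2 to 5 when single libraries were left out, with 2 again in the ADAM9i libraries alone.

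Contractile genes did not move together. Of 23 tested, 4 rose and none fell, beside 2.66% and 1.32% of all genes, with 16 positive values and a median of 0.12. The 4 were genes of the actin cytoskeleton that many cell types express. Tpm1, a tropomyosin, had 1001, 995 and 1034 CPM with rhCTHRC1, against 882, 845 and 855 CPM with vehicle (log2 change 0.23 ± 0.03 SE, adjusted p = 9.25e-05). Flna and Actn1, which crosslink actin filaments, each rose by 0.18 (SE 0.03 and 0.04), and Vcl, an adhesion protein whose gene overlaps Ap3m1, by 0.14 ± 0.03 (SE). The Vcl call was lost in 4 of 6 fits that left out 1 library, with an adjusted p of up to 0.106. Acta2, in contrast, had 396, 398 and 354 CPM with rhCTHRC1, against 481, 444 and 476 CPM with vehicle. All 3 rhCTHRC1 libraries were below all vehicle libraries, but the log2 change of -0.29 ± 0.11 (SE) had an adjusted p of 0.237, against 0.00877 in the ADAM9i libraries alone. Tagln, a calponin-related protein, had 14.7, 14.2 and 15.5 CPM with rhCTHRC1, against 11.4, 12.5 and 11.4 CPM with vehicle (adjusted p = 0.2), and it overlaps the more abundant Pcsk7. Cnn1 and Myocd, the smooth muscle calponin and the master coactivator, stayed under 2 CPM and were not called, with adjusted p of 0.925 for each.

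**Figure D2:**
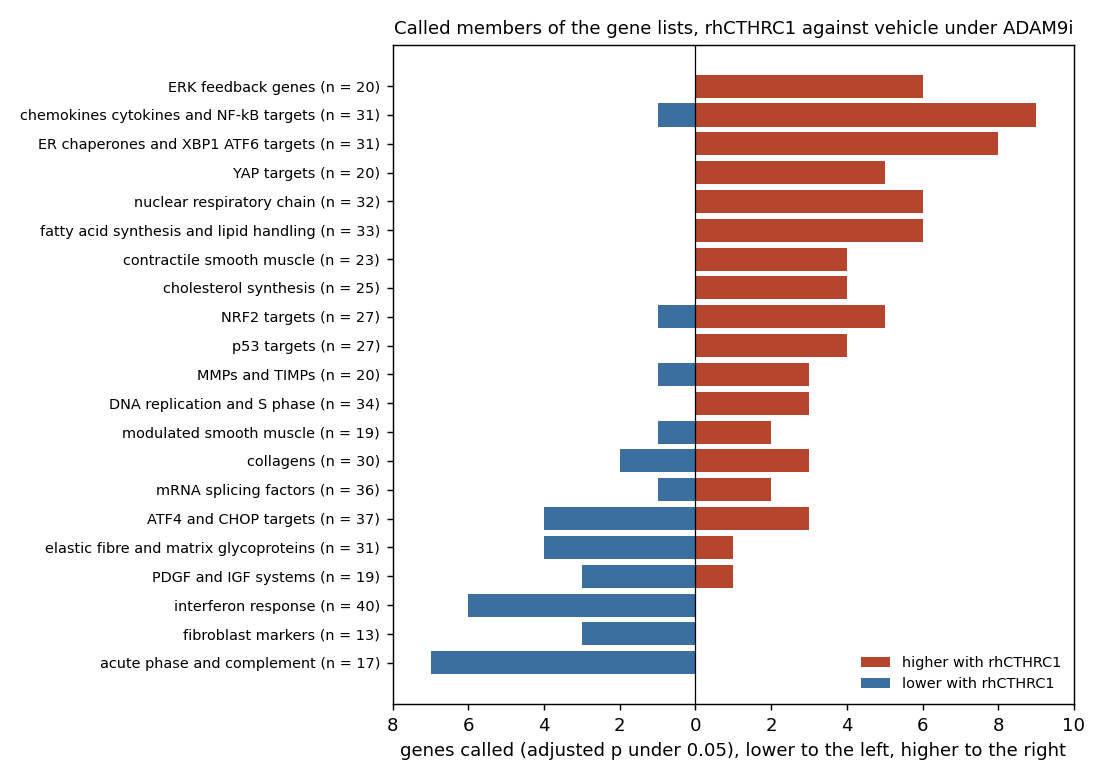
Number of members of 21 gene lists that passed an adjusted p of 0.05 under the inhibitor, rhCTHRC1 against vehicle, with higher members drawn to the right and lower members to the left. The ERK feedback, YAP and ER chaperone lists have higher members only, and the interferon and acute phase lists lower members only. Over all genes tested, 2.66% were higher and 1.32% lower.

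In the endoplasmic reticulum, chaperones fold secreted proteins and are induced through XBP1 and ATF6. Of 31 such genes 8 rose and none fell, beside 2.66% and 1.32% of all genes. Among their values 26 were positive, although the median of 0.09 was small. Hspa5, which encodes BiP, had 1025, 989 and 1009 CPM with rhCTHRC1, against 789, 794 and 815 CPM with vehicle (log2 change 0.33 ± 0.03 SE, adjusted p = 3.83e-06). The groups did not overlap. Xbp1, the transcription factor itself, rose by 0.23 ± 0.04 (SE), Herpud1, a degradation adaptor, by 0.18 ± 0.03 (SE) and Hyou1, a chaperone, by 0.16 ± 0.03 (SE). Leaving out single libraries gave 4 to 7 higher members, with 5 without vehicle library 1 and 4 without rhCTHRC1 library 3.

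The targets of ATF4 and CHOP, the amino acid branch of the stress response, were divided. Of 37 tested, 3 rose and 4 fell, beside 2.66% and 1.32% of all genes, with a median of 0.02. Aldh1l2, an enzyme of mitochondrial folate metabolism, had 315, 285 and 286 CPM with rhCTHRC1, against 399.5, 416 and 378 CPM with vehicle (log2 change -0.43 ± 0.04 SE, adjusted p = 3.95e-06), and it overlaps D10Wsu102e. Pycr1, the last enzyme of proline synthesis, had 39.8, 31.8 and 35 CPM with rhCTHRC1, against 53.6, 52.4 and 49.9 CPM with vehicle (log2 change -0.55 ± 0.07 SE, adjusted p = 0.000261). Both were lower in every rhCTHRC1 library. Atf5, a transcription factor, and Pck2, a mitochondrial enzyme, fell by 0.31 and 0.25 on the log2 scale, and Atf5 overlaps the more abundant Nup62. Slc7a1, Chac1 and Aldh18a1 were the members that rose, and Aldh18a1 encodes an earlier enzyme of the same proline pathway as Pycr1.

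Inflammatory genes mostly split by family. Of 31 chemokine, cytokine and NF-kB target genes, 9 rose and 1 fell, beside 2.66% and 1.32% of all genes, with a median of 0.16. Nfkb2, the precursor of a non-canonical NF-kB subunit, had 265, 260 and 283 CPM with rhCTHRC1, against 221, 227 and 204 CPM with vehicle (log2 change 0.31 ± 0.04 SE, adjusted p = 0.000148), and it overlaps Psd. Traf1, an adaptor of TNF receptors, had 3.12, 3.58 and 3.93 CPM with rhCTHRC1, against 0.979, 1.21 and 1.17 CPM with vehicle (log2 change 1.66 ± 0.21 SE, adjusted p = 0.00015). Traf1 was low in all libraries, yet every rhCTHRC1 library was above every vehicle library. Ccl2, the monocyte chemokine, had 152, 155 and 170 CPM with rhCTHRC1, against 117, 109 and 109 CPM with vehicle (log2 change 0.51 ± 0.09 SE, adjusted p = 0.0092, and 0.0501 without vehicle library 2). Csf1, the macrophage growth factor, rose by 0.21 ± 0.03 (SE). Il6, with 0.556 to 1.08 CPM with rhCTHRC1 and 0.73 to 1.16 CPM with vehicle, was near 1 CPM in both groups and was not called (adjusted p = 0.842). Macrophage markers summed to 24.6 to 35.7 CPM with rhCTHRC1 and 20.7 to 24.2 CPM with vehicle, with 0 of 5 tested members called by edgeR and 1 at an unadjusted p under 0.05. Their part in these changes was not tested. The higher members numbered 5 without rhCTHRC1 library 3.

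Ccl5, a chemokine for T cells and the single member that fell, had 4.84, 5.43 and 4.5 CPM with rhCTHRC1, against 8.88, 9.63 and 11.1 CPM with vehicle (log2 change -1.004 ± 0.12 SE, adjusted p = 9.25e-05). Ccl5 is also induced by interferon, and the interferon response genes were lower as well. Cxcl10, another chemokine that interferon induces, was called higher, so such chemokines did not all move with the interferon list. Of 40 tested, none rose and 6 fell, against 1.32% of all genes that fell. Their median was -0.24, 3 values were positive, and 22 members were lower at an unadjusted p under 0.05 against 0 higher. Irf7, the factor that amplifies interferon production, had 5.68, 4.89 and 4.99 CPM with rhCTHRC1, against 8.6, 8.23 and 6.92 CPM with vehicle (log2 change -0.61 ± 0.11 SE, adjusted p = 0.00273). Irf7 overlaps Phrf1, which is the more abundant. Bst2, the membrane tether of viruses shown above, had 61.3, 59.8 and 64.7 CPM with rhCTHRC1, against 75.2, 75.8 and 81.6 CPM with vehicle (log2 change -0.32 ± 0.06 SE, adjusted p = 0.00237). Ifih1, a sensor of double-stranded RNA, fell by 0.31 and Oasl2 by 0.47 on the log2 scale, with adjusted p of up to 0.0924 and 0.0888 when 1 library was left out. Gbp2 and Isg15 also passed. Among the largest falls were further genes of this kind, Apol9a with 32.5, 30.9 and 34.5 CPM with rhCTHRC1, against 47.5, 44.1 and 56.8 CPM with vehicle, its near-identical copy Apol9b, and Gvin1, whose adjusted p was 0.0193 and 0.0511 in the ADAM9i libraries alone. Leaving out single libraries gave 2 to 8 lower interferon genes, with 2 without vehicle library 3, while 3 passed in the ADAM9i libraries alone and 11 in DESeq2.

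Acute phase and complement genes fell in the same direction, 7 of 17 against none that rose, with a median of -0.18. Over all genes 1.32% fell. Saa3, a serum amyloid, had 66.7, 72.2 and 67 CPM with rhCTHRC1, against 92.1, 99.2 and 90.2 CPM with vehicle (log2 change -0.45 ± 0.09 SE, adjusted p = 0.00837). C1s1 and C1ra, proteases of the classical complement pathway, fell by 0.18 and 0.20 on the log2 scale. When all 24 libraries were fitted they had adjusted p of 0.308 and 0.169, and 4 members of the list passed. Leaving out 1 library gave 2 to 6 members, with 3 without vehicle library 2 or rhCTHRC1 library 2 and 2 without rhCTHRC1 library 3.

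Matrix genes moved in both directions. Pdgfra, the PDGF receptor of fibroblasts, had 214, 217 and 214 CPM with rhCTHRC1, against 236, 252 and 261 CPM with vehicle (log2 change -0.22 ± 0.05 SE, adjusted p = 0.00981, and up to 0.0554 with 1 library left out). With Dcn, which encodes decorin, and Fbln1 it made up the 3 of 13 fibroblast markers that fell, and none rose. Dcn and Fbln1 lost their calls in other fits. Igfbp5, an IGF-binding protein, had 39.8, 33.3 and 27.8 CPM with rhCTHRC1, against 50.1, 47.2 and 52 CPM with vehicle (log2 change -0.57 ± 0.11 SE, adjusted p = 0.00537). Fbln5, an elastic fibre protein, fell by 0.26, and Ltbp1, which holds latent TGF-beta in the matrix, rose by 0.26 on the log2 scale. Of 30 collagens 3 rose, including Col8a1 by 0.28 and Col5a1 by 0.18, and 2 fell. Over all genes 2.66% rose and 1.32% fell.

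Matrix metalloproteinases were divided too, with 3 of 20 MMP and TIMP genes higher and 1 lower, beside 2.66% and 1.32% of all genes. Mmp10, stromelysin 2, had 16.6, 19.3 and 14 CPM with rhCTHRC1, against 9.45, 9.25 and 8.7 CPM with vehicle (log2 change 0.87 ± 0.15 SE, adjusted p = 0.00231). Mmp2, gelatinase A, had 269, 263 and 264 CPM with rhCTHRC1, against 282, 291 and 296 CPM with vehicle. That narrow gap was called, with a log2 change of -0.13 ± 0.03 (SE, adjusted p = 0.0219), but the adjusted p was up to 0.0944 with 1 library left out. Timp2, an inhibitor of these enzymes, rose by 0.15 ± 0.02 (SE). Mmp9 stayed under 1 CPM in every library and was not called (adjusted p = 0.93).

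Several metabolic lists held small rises, to be read beside the 2.66% of all genes that rose. Of 25 cholesterol synthesis genes 4 rose and none fell, led by Cyp51, a sterol demethylase, with 0.18, and Msmo1, an oxidase of the same pathway, with 0.20 on the log2 scale. Of 33 lipid genes 6 rose, among them Plin2, the lipid droplet coat, by 0.25 and Elovl6, a fatty acid elongase, by 0.28. Angptl4, an inhibitor of lipoprotein lipase, had 50.1, 41 and 45.3 CPM with rhCTHRC1, against 24, 29.5 and 17.1 CPM with vehicle (log2 change 0.95 ± 0.16 SE, adjusted p = 0.0046, and 0.119 in the ADAM9i libraries alone). It was the largest rise among called genes of at least 5 CPM. Of 32 nuclear genes of the respiratory chain 6 rose and none fell, Cox5a by 0.20 and Atp5b by 0.11, whereas of the 13 mitochondrially encoded genes 0 passed in edgeR, 1 in DESeq2 and 1 at an unadjusted p under 0.05. The clock repressor Nr1d1 had 19.3, 20.7 and 24.2 CPM with rhCTHRC1, against 33.3, 29.3 and 32 CPM with vehicle (log2 change -0.56 ± 0.09 SE, adjusted p = 0.000827).

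The list counts that follow stand beside 2.66% of all genes that rose and 1.32% that fell. Of 34 S phase genes 3 rose, among them Rrm2, a subunit of ribonucleotide reductase, by 0.23, and 3 were higher and 5 lower at an unadjusted p under 0.05. Of 34 mitotic genes 2 fell and none rose, Mki67, the proliferation antigen, and Cenpf, a kinetochore protein. The mitotic list had 5 positive values, a median of -0.08 and 15 members lower against 0 higher at an unadjusted p under 0.05. In the 24-library fit 5 of its members fell and in DESeq2 6, but without vehicle library 3, rhCTHRC1 library 1 or rhCTHRC1 library 2 the count was 0. Of 27 p53 targets 4 rose, including Aen by 0.34 and Mdm2 by 0.22. Cdkn1a, the cell cycle inhibitor p21, rose by 0.65 ± 0.13 (SE, adjusted p = 0.0109), with an adjusted p of 0.089 in the ADAM9i libraries alone. Of 27 NRF2 targets 5 rose and 1 fell, including Gss, a glutathione enzyme whose gene overlaps Acss2, by 0.36. Other large rises were those of Megf10 and Dock8, with log2 changes of 0.68 and 0.65. The remaining large falls were Tenm4 and P2rx3, with -0.79 and -0.56. Tenm4 overlaps the more abundant Gm8319, and its call was lost in 1 of 9 other settings, with an adjusted p of 0.33. P2rx3 overlaps the far more abundant Ssrp1.

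The next comparison asked whether the same protein moved the same genes without the inhibitor. Values for all backgrounds came from a fit of the 24 libraries, in which 754 genes or 3.79% were called under ADAM9i (2.46% higher and 1.33% lower), 12056 or 60.6% in WT cells, 8415 or 42.3% in Rosa26-KO cells and 0 in Adam9-KO cells, where 1519 had an unadjusted edgeR p under 0.05. The WT vehicle libraries stood apart from the other vehicle libraries. Hspa5, for example, averaged 802 ± 14.9 CPM in ADAM9i vehicle and 2464 ± 82.4 CPM in WT vehicle (SD, n = 3 each), while Rosa26-KO vehicle had 821 ± 6.04 CPM and Adam9-KO vehicle 756 ± 10.4 CPM. The levels and log2 changes of Rosa26-KO are those of its own libraries and are given beside the WT values, but the filter, the spread and the calls of this fit drew on all 24 libraries, WT included. The 749 calls under ADAM9i come from the fit with WT. Over 13502 genes of at least 1 CPM the SD of the log2 response was 0.26 under ADAM9i, 1.02 in WT, 0.53 in Rosa26-KO and 0.18 in Adam9-KO.

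Most genes called under the inhibitor were called in the opposite direction in Rosa26-KO and in WT cells. Of the 500 genes that rose under ADAM9i, 336 or 67.2% fell in Rosa26-KO cells and 74 or 14.8% rose, beside 22.2% of all genes that fell there and 20.1% that rose. Of the 249 genes that fell under ADAM9i, 153 or 61.4% rose in Rosa26-KO cells and 41 or 16.5% fell. In WT cells 332 of the 500 fell and 128 rose, beside 28.7% of all genes that fell and 31.9% that rose, and 170 of the 249 rose and 57 fell. The opposite calls made up 65.3% of the ADAM9i calls and 5.81% of the Rosa26-KO calls, and 67% of the ADAM9i calls and 4.16% of the WT calls. Among the 34 genes that changed at least 2-fold, 11.8% were opposite in Rosa26-KO and 32.4% in WT. All of these but Ccl5 averaged under 5 CPM in both ADAM9i groups, where low counts limit calls. The lower shares therefore cannot tell whether larger changes kept their direction.

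Medians are given for the same genes, which were picked by their calls under ADAM9i. That choice fixed the sign of the ADAM9i medians and favoured their size. The other backgrounds had no such choice, so the sizes are not compared on equal terms. The 500 genes had a median log2 change of 0.23 under ADAM9i, -0.30 in Rosa26-KO, -0.55 in WT and 0.02 in Adam9-KO. The 249 genes had a median of -0.24 under ADAM9i, 0.29 in Rosa26-KO, 0.62 in WT and -0.04 in Adam9-KO. Across the 13502 genes, Spearman's rho between the ADAM9i response and the others was -0.28 for Rosa26-KO, -0.29 for WT and 0.12 for Adam9-KO. Pearson's r was -0.12, -0.13 and 0.04 in the same order. Genes are not independent replicates, and each pair of responses shared no library, so these are descriptions of the libraries.

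**Figure D3:**
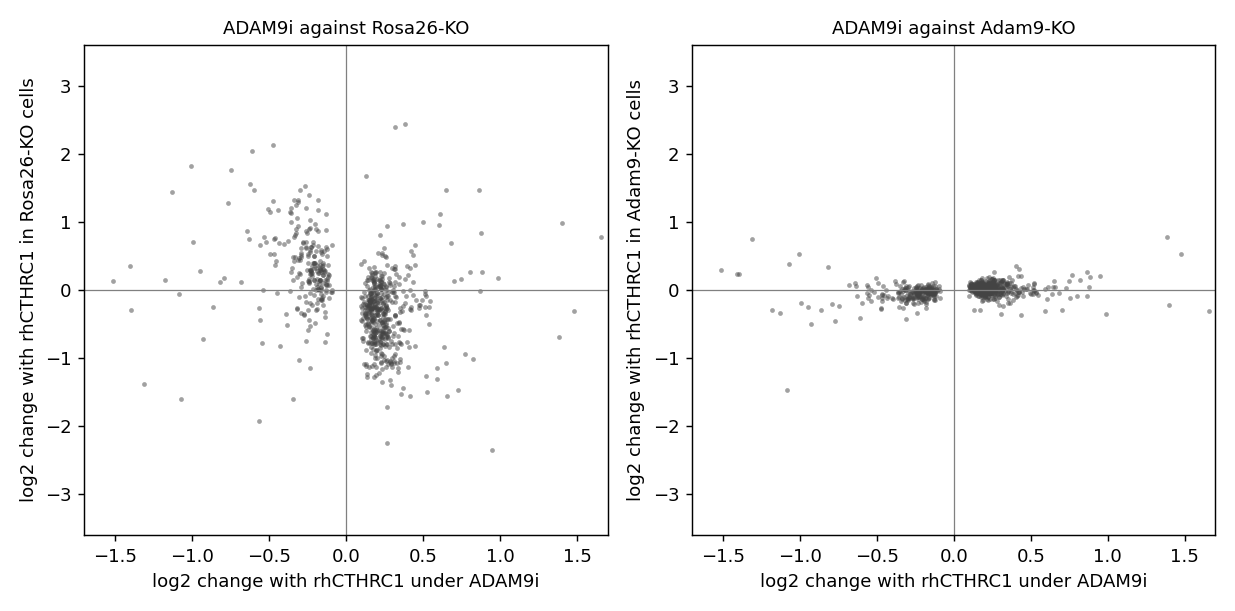
Log2 change with rhCTHRC1 under ADAM9i (x axis) of the 749 called genes against their log2 change in Rosa26-KO cells and in Adam9-KO cells (y axes), with 727 inside the axes. Most genes that rose under the inhibitor lie below zero in Rosa26-KO cells, with a median of -0.30, and close to zero in Adam9-KO cells, with a median of 0.02.

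The difference between the ADAM9i and the Rosa26-KO responses was tested directly, and 7049 of 19891 genes or 35.4% passed, 3792 or 19.1% with the more positive response under ADAM9i and 3257 or 16.4% with the more negative. Acta2 averaged 384 ± 25.3 CPM with rhCTHRC1 and 469 ± 20.3 CPM with vehicle under ADAM9i, against 40.6 ± 1.78 CPM with rhCTHRC1 and 415 ± 5.72 CPM with vehicle in Rosa26-KO cells (SD, n = 3 each). The log2 responses were -0.29 under ADAM9i and -3.35 in Rosa26-KO, a difference of 3.06 ± 0.14 (SE, adjusted p = 9.85e-12). In WT cells Acta2 averaged 48.6 ± 5.02 CPM with rhCTHRC1 and 235 ± 32.5 CPM with vehicle (SD, n = 3 each), a log2 response of -2.27. Tagln differed by 1.77 ± 0.23 (SE, adjusted p = 2.44e-07), with 0.33 under ADAM9i and -1.44 in Rosa26-KO.

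Mmp2 went the other way. It had a log2 response of -0.13 under ADAM9i, 0.88 in Rosa26-KO and 1.04 in WT, and the ADAM9i response differed from that of Rosa26-KO by -1.01 ± 0.05 (SE, adjusted p = 2.73e-15). Irf7 had -0.61 under ADAM9i, 2.04 in Rosa26-KO and 2.88 in WT, a difference from Rosa26-KO of -2.65 ± 0.22 (SE, adjusted p = 2.18e-10). Over the interferon list, 5 of 40 fell and none rose under ADAM9i in the 24-library fit, whereas 39 rose in Rosa26-KO and 36 in WT, with medians of -0.24, 1.38 and 1.39 in that order. The difference passed with the more negative value under ADAM9i for 39 of the 40. Among the largest negative differences were Ces1d, a carboxylesterase, Ptgds, which makes prostaglandin D, and the interferon genes Ifit3b and Ddx60. Ptgds was itself called higher under ADAM9i in the 12-library fit, so its negative difference is not a fall under the inhibitor. It was low there, with 69, 82 and 90 counts with rhCTHRC1, against 49, 35 and 57 with vehicle. Ces1d was low too, with 55, 19 and 54 counts against 47, 79 and 57.

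**Figure D4:**
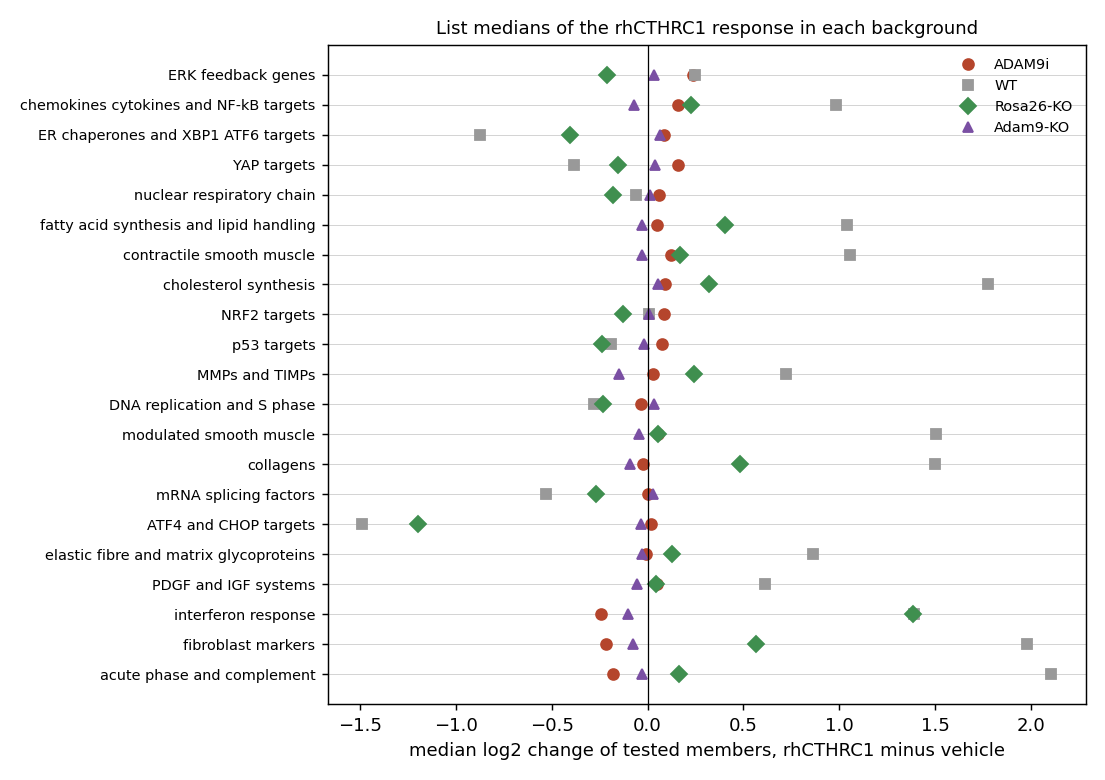
Median log2 change with rhCTHRC1 of each gene list in the ADAM9i, WT, Rosa26-KO and Adam9-KO backgrounds, all from the 24-library fit. The interferon list has medians of -0.24 under ADAM9i, 1.39 in WT, 1.38 in Rosa26-KO and -0.10 in Adam9-KO, and the ATF4 and CHOP list 0.02, -1.49, -1.20 and -0.03.

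Stress genes showed the reverse contrast. Of 31 ER chaperone genes, 9 rose and none fell under ADAM9i in the 24-library fit, whereas 23 fell and 2 rose in Rosa26-KO and 27 fell and 2 rose in WT. Hspa5 had a log2 response of 0.33 under ADAM9i, -0.85 in Rosa26-KO and -2.68 in WT, a difference from Rosa26-KO of 1.19 ± 0.06 (SE, adjusted p = 2.09e-13). Of 37 ATF4 and CHOP targets, 2 rose and 4 fell under ADAM9i, against 36 lower in Rosa26-KO and 37 lower in WT. Mthfd2, of mitochondrial folate metabolism, and Psat1, of serine synthesis, had responses of 0.11 and 0.02 under ADAM9i, and of -1.87 and -1.29 in Rosa26-KO. Aldh1l2 fell in all 3 backgrounds, by 0.43 under ADAM9i, 0.83 in Rosa26-KO and 2.69 in WT.

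The YAP list had 4 higher members under ADAM9i, against 10 lower and 3 higher in Rosa26-KO. Ankrd1 responded with 0.59 under ADAM9i, -1.31 in Rosa26-KO and -1.67 in WT, and differed from Rosa26-KO by 1.90 ± 0.12 (SE, adjusted p = 3.35e-10). Angptl4 had the largest positive difference from Rosa26-KO among the genes that meet the naming rule, at 3.30 ± 0.31 (SE, adjusted p = 6.66e-08), with 0.95 under ADAM9i and -2.35 in Rosa26-KO. Fos differed by 2.87 ± 0.49 (SE, adjusted p = 0.000134), but its response was 3.20 in WT, so that Rosa26-KO and WT did not share a direction. Egr1, another immediate early factor, likewise had 0.12 under ADAM9i, -2.20 in Rosa26-KO and 3.05 in WT.

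Some responses kept their direction. Spp1 rose in all 3 backgrounds, with 0.61 under ADAM9i, 1.11 in Rosa26-KO and 1.503 in WT, and its response under ADAM9i was smaller than in Rosa26-KO by a log2 difference of -0.50 ± 0.08 (SE, adjusted p = 2.9e-05). Etv4 had 0.87 under ADAM9i, 1.47 in Rosa26-KO and 0.37 in WT, with a difference from Rosa26-KO of -0.60 ± 0.14 (SE, adjusted p = 0.0014). Axl had 0.19 under ADAM9i, 0.24 in Rosa26-KO and 0.35 in WT, and the cholesterol list 5, 19 and 25 higher members in that order with none lower. Cd44 rose under ADAM9i and fell in Rosa26-KO and WT, with 0.52, -0.37 and -0.30 in that order, and its response differed from that of Rosa26-KO by 0.89 ± 0.06 (SE, adjusted p = 9.33e-13).

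**Figure D5:**
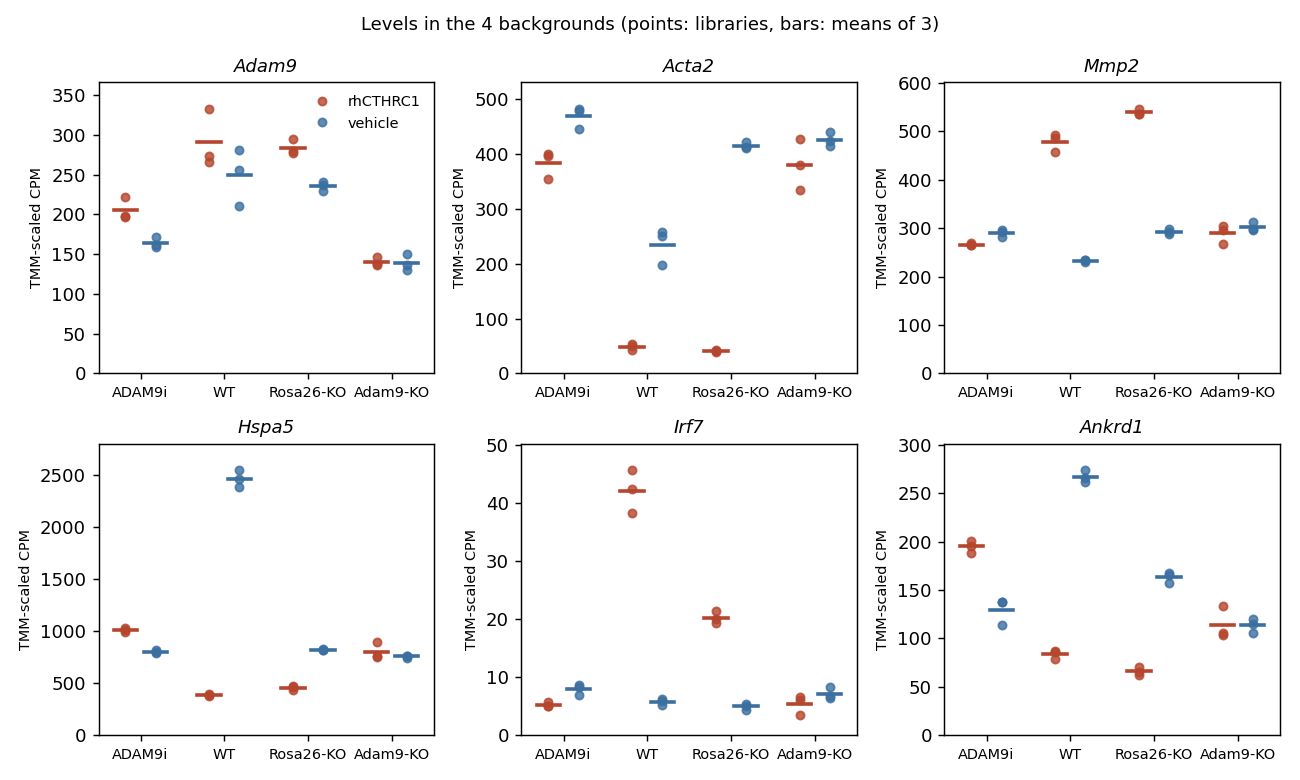
CPM per library of Adam9, Acta2, Mmp2, Hspa5, Irf7 and Ankrd1 in the ADAM9i, WT, Rosa26-KO and Adam9-KO backgrounds, with rhCTHRC1 left of vehicle in each. Acta2 averages 384 and 469 CPM under ADAM9i, and 40.6 and 415 CPM in Rosa26-KO cells.

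Against WT, 10540 of 18816 genes or 56% differed in their response (27.8% with the more positive value under ADAM9i and 28.3% with the more negative), a count that rests on the WT vehicle libraries that stood apart. Acta2 differed there by 2.001 ± 0.16 (SE, adjusted p = 2.84e-06).

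Adam9 mRNA was still present in the Adam9-KO libraries, at 130 to 150 CPM over their 6 libraries, against 229 to 295 CPM in the 6 Rosa26-KO libraries. The 6 ADAM9i libraries had 159 to 222 CPM. The level of the mRNA does not show how much ADAM9 protein was left in either background. In Adam9-KO cells the response was small as well, with an SD of 0.26 under ADAM9i and 0.18 in Adam9-KO. Between these responses 158 of 19891 genes or 0.794% differed, 124 or 0.623% with the more positive response under ADAM9i and 34 or 0.171% with the more negative. At an unadjusted p under 0.05 there were 2027. A gene that missed the threshold is not shown to respond alike. Ndnf, a secreted factor of neurons and vessels, averaged 117 ± 7.3 CPM with rhCTHRC1 and 77.7 ± 6.32 CPM with vehicle under ADAM9i, against 30.9 ± 1.13 CPM and 38.4 ± 0.506 CPM in Adam9-KO cells (SD, n = 3 each), a difference of responses of 0.90 ± 0.10 (SE, adjusted p = 6.1e-06). Cd44 responded with 0.52 under ADAM9i and 0.00 in Adam9-KO, a difference of 0.52 ± 0.06 (SE, adjusted p = 8.75e-06).

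Further genes that led the response under the inhibitor also differed from Adam9-KO. Most were named for that response, and the difference reuses the same ADAM9i libraries. A difference from a background without called genes was therefore favoured by the choice of genes. Spp1 differed by 0.57, Hmga2 by 0.61, Dusp4 by 0.62, Sorbs2 by 0.68, Nfkb2 by 0.38 and Mmp10 by 0.95 (adjusted p = 0.0126 for Mmp10, and up to 0.0597 when 1 library was left out). In each the response was positive under ADAM9i and between -0.09 and 0.14 in Adam9-KO. Ccl5 differed by -1.53 ± 0.21 (SE, adjusted p = 0.000145), with -1.004 under ADAM9i and 0.53 in Adam9-KO. Tef, a clock-related transcription factor, differed by -0.51, Aldh1l2 by -0.35, Nr1d1 by -0.61 and Igfbp5 by -0.51. By list, 4 of 31 chemokine and NF-kB genes, 4 of 30 collagens and 3 of 20 YAP targets had the more positive response under ADAM9i, beside 0.623% of all genes. Other lists had at most 2 such members. Acta2 and Irf7 had differences from Adam9-KO of -0.13 and -0.19 with adjusted p of 0.853 and 0.865, and Hspa5 of 0.25 with an adjusted p of 0.0566. The count of 158 fell to 63 without vehicle library 3 of ADAM9i, 62 without Adam9-KO vehicle library 1, and 86 to 89 without each of rhCTHRC1 libraries 2 and 3 of ADAM9i, Adam9-KO vehicle library 2 and Adam9-KO rhCTHRC1 library 2.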

How the data were processed

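RNA of 24 MOVAS libraries was sequenced with a stranded total RNA kit as 150-base paired ends. The authors deposited a file of raw counts for 33034 genes, with 1 count per gene and library and, beside it, FPKM values. HISAT2, StringTie, DESeq2 and GRCm38 are named in the submitters' processing notes, without versions; the use of strand in counting is not given in the sources used here, so overlapping genes may share reads. Counts were tested here with edgeR 4.0.16 in R 4.3.3 (filterByExpr, TMM, robust quasi-likelihood fit, Benjamini-Hochberg adjustment), with version 1.17.8 of data.table. The response and its difference from WT came from a fit of 12 libraries (ADAM9i and WT, 8 residual degrees of freedom), and values set across backgrounds from a fit of all 24 (16 residual degrees of freedom). SE is the log2 change divided by the root of F. CPM are scaled by TMM. Alternatives were DESeq2 1.42.0, limma 3.58.1 on log2(FPKM + 1) with genes of at least 1 FPKM in 3 libraries, RLE or library size scaling, no filter, a replicate block, the 6 libraries alone and leaving out each library.

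Genes were named by a rule: 11 fixed genes, the 10 largest rises and falls among called genes of at least 5 CPM without overlap, and leading called members of lists. The members and the 39 lists were chosen with earlier results of these data known. Same-numbered libraries of the groups correlated by 0.009 to 0.031 after removing group means, so they were not treated as pairs. The tests were tried on simulated counts with known changes. Figures used matplotlib 3.10.9, pandas 2.3.3 and Python 3.11.15. Results for some items are not reported here.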

Additional observations from a re-analysis of the deposited data

Results flagged for a closer look

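The values here are differences between the log2 response to rhCTHRC1 under ADAM9i and that in another background, each past an adjusted p of 0.05 in edgeR for the difference itself. The count of such genes was 10540 against WT, whose vehicle libraries stood apart, 7049 against Rosa26-KO and 158 against Adam9-KO.

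Against Rosa26-KO, the response under ADAM9i was the more positive for Acta2 by 3.06, Tagln by 1.77, Angptl4 by 3.30, Hspa5 by 1.19, Ankrd1 by 1.90 and Fos by 2.87. It was the more negative for Mmp2 (-1.01), Ccl5 (-2.83), Irf7 (-2.65), Spp1 (-0.50) and Etv4 (-0.60). Spp1 and Etv4 rose in both backgrounds, Acta2 had a negative value in both, and the other 8 had opposite signs, while Acta2, Tagln and Fos were not called under ADAM9i in the 12-library fit.

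Against Adam9-KO, the response under ADAM9i was the more positive for Cd44 by 0.52, Hmga2 by 0.61, Dusp4 by 0.62, Mmp10 by 0.95, Ndnf by 0.90 and Nfkb2 by 0.38. It was the more negative for Tef (-0.51), Aldh1l2 (-0.35) and Ccl5 (-1.53). Most of these genes were named for their response under ADAM9i, and that choice favoured a difference from Adam9-KO. No gene passed in Adam9-KO on its own in edgeR, where 1519 had an unadjusted p under 0.05.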

How the results depend on the processing

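Alternatives changed how many genes were called far more than which way the named genes moved. For the response under ADAM9i, DESeq2 called 1159 genes (789 higher, 370 lower), at least a 2-fold change left 34 (14 and 20), and the 6 libraries alone with the replicate block gave 448 (320 and 128). The replicate block in the 12 libraries gave 728 (498 and 230), although the numbers do not pair the libraries by the labels; every library correlated best with its own number, which is a hint from the data. Leaving out 1 library gave 397 to 638 genes, 276 to 410 higher and 121 to 228 lower. The share of called genes that were opposite was 58.3% to 68.7% in Rosa26-KO and 61.6% to 69.9% in WT. Among genes of at least a 2-fold change it was 11.8% and 32.4%, and all of these but Ccl5 averaged under 5 CPM.

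The difference from WT had 10153 to 10364 genes without single libraries (4979 to 5137 and 5036 to 5281), and 4623 (1833 and 2790) at 2-fold. The difference from Rosa26-KO had 6580 to 6782 (3644 to 3749 and 2918 to 3114), and 1322 (428 and 894) at 2-fold. The difference from Adam9-KO had 62 to 185 (45 to 136 and 13 to 49), 12 (6 and 6) at 2-fold, 328 (236 and 92) in DESeq2 and 190 (147 and 43) with the replicate block. Scaling by library size alone gave 4113 and 6558 against WT, and 2970 and 4177 against Rosa26-KO, where limma gave 3068 and 3872, and 3941 and 5453 against WT.

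Adam9 was called at 0.30 in limma and 0.32 in the 6 libraries alone, with or without the block. Acta2 was called at -0.29 in both of the latter. Myocd, not called in any of these fits, ranged from -0.0161 (reversed, without vehicle library 1) to 0.33 when 1 library was left out. Of the values of single genes, 58 lost their call under other settings and 121 when 1 library was left out, in each case with the direction kept, and 915 and 694 kept call and direction. The cause was not tested.

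At this depth 3 counts correspond to 0.046 to 0.049 CPM. Doses, times and cultures are not in the labels used here.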
